A study of Mus musculus with 12 samples.

Results

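A set of 10 genes of blood vessel endothelium are described here in whole subcutaneous Renca tumors of mice, chosen by name as genes of endothelial junctions, endothelial surface proteins and the angiopoietin system. They are Pecam1, Cdh5, Tek, Tie1, Eng, Emcn, Esam, Cldn5, Plvap and Angpt2, and all 10 had a row among the 14496 genes of the table. Renca is a renal carcinoma cell line, here injected under the skin of BALB/C mice, with tumors taken on day 14. In 6 tumors (IK1 to IK6) a concomitant intra-kidney tumor was present, and 6 tumors (SC1 to SC6) grew with no intra-kidney tumor. Both groups carried the same subcutaneous Renca tumor, whose RNA, of tumor cells and stroma together, was sequenced. Nothing in the labels ties the 12 tumors to 12 mice, and the p-values therefore cover the variation among these samples, some of which may be technical.

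Endothelial cells line blood vessels and are held together by adherens junctions, built on VE-cadherin (Cdh5), and by tight junctions, built on claudins (Cldn5 in endothelium). Vessel stability is also set by the TIE2 receptor (Tek), which is activated by angiopoietin-1 from the surrounding mural cells and, depending on context, blocked or weakly activated by angiopoietin-2, which endothelial cells make and store themselves. In tumors, angiopoietin-2 is known for its rise in remodelling vessels, and Plvap and Eng for their high levels in newly formed ones.

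Values are log2 CPM, that is, reads of a gene relative to all reads of its tumor at a common total, on a log2 scale, and the depth recovered from the table was 53312559 to 66142468 reads per tumor. The 10 genes had between 144 reads (Cldn5 in its lowest tumor) and 8133 reads (Eng in its highest). Counting error at the lowest tumor was 0.12 on the log2 scale for Cldn5, 0.10 for Tek and 0.08 for Angpt2, and 0.0207 to 0.0546 for the others. Of 29 other endothelial genes looked for, 28 were in the table, at a summed 368 to 591 CPM per tumor. Which cells the RNA of the 10 genes came from was not tested. The tumor epithelium list, with the renal factor Pax8 and the keratin Krt18, summed to 2359 to 2965 CPM. In bulk tumors, fewer endothelial cells and less RNA per endothelial cell cannot be told apart.

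Levels of different genes were compared per kilobase of annotated exon, as log2 CPM per kb. Plvap (ENSMUSG00000034845), which forms the diaphragms of fenestrae and caveolae, and Eng (ENSMUSG00000026814), a coreceptor for BMP ligands, stood highest, at 4.73 each. Their order could not be told apart, since Plvap exceeded Eng in 5 of 12 tumors. Esam (ENSMUSG00000001946), an adhesion molecule of endothelial tight junctions and platelets, followed at 3.83, and Cdh5 (ENSMUSG00000031871) at 3.69, with Esam above Cdh5 in 9 of 12 tumors and a paired difference of 0.14 ± 0.20 (SD). Pecam1 (ENSMUSG00000020717), the adhesion molecule CD31 of endothelium, platelets and leukocytes, lay at 3.21, below Cdh5 in 12 of 12 tumors. Tie1 (ENSMUSG00000033191), the receptor that partners TIE2, lay at 2.20 and Emcn (ENSMUSG00000054690), the sialomucin endomucin of capillaries and veins, at 1.72, with the same order in 12 of 12 tumors. The lowest levels were those of Cldn5 (ENSMUSG00000041378) at 1.27, Angpt2 (ENSMUSG00000031465) at 1.09 and Tek (ENSMUSG00000006386) at 0.58. Cldn5 exceeded Angpt2 in 8 of 12 tumors and Angpt2 exceeded Tek in 9 of 12, so these neighbours overlapped. Exon lengths covered all annotated exons of a gene, from an annotation of a newer build than the one used for counting. The levels per kb and their order are therefore approximate. Before division by length, mean CPM was 58.9 for Pecam1 and 55.0 for Cdh5, and 7.40 for Tek and 3.48 for Cldn5, the reverse of their order per kb.

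Promoter sequences are shown for those of the 10 genes with an entry in the reference used. Pecam1, Cdh5, Esam, Plvap and Angpt2 had none. Any part of these sequences in how the genes varied across tumors was not tested. RefSeq promoters (build GRCm38.p6) were matched for 5 of the 10 genes. The 250 bases before the start site are printed, 5′ to 3′ on the strand of the gene. They lie at chr4:94739039-94739288 for Tek (plus strand), chr4:118489850-118490099 for Tie1 (minus strand), chr2:32646345-32646594 for Eng (plus), chr3:137340828-137341077 for Emcn (plus) and chr16:18776597-18776846 for Cldn5 (plus). Capitals mark the letters AGGAA or their reverse complement TTCCT, the core bound by ETS transcription factors, a family that works in endothelium.
Tek: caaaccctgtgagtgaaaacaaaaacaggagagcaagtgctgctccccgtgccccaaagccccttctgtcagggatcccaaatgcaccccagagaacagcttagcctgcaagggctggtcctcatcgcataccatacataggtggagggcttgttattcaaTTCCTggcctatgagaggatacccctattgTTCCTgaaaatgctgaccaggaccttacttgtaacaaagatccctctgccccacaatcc
Tie1: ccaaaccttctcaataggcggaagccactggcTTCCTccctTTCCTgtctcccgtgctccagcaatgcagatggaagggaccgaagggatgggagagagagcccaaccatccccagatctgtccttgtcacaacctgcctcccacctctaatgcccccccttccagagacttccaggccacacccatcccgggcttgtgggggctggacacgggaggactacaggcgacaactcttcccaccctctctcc
Eng: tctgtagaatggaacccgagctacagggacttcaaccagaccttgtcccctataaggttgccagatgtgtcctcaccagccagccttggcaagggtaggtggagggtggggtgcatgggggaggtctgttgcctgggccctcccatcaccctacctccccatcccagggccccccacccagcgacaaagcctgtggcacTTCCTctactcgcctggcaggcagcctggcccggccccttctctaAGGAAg
Emcn: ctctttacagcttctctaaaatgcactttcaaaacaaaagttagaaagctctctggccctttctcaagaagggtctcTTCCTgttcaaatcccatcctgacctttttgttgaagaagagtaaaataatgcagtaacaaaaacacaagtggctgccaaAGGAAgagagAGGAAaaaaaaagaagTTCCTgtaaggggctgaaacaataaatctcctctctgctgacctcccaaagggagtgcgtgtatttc
Cldn5: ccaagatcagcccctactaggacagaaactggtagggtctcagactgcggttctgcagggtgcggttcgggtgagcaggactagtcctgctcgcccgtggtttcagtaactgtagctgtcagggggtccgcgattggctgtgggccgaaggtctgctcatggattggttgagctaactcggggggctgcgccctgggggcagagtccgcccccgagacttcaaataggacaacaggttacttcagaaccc
The letters occurred 2 times before Tek, 2 times before Tie1, 2 times before Eng and 4 times before Emcn, and 0 times before Cldn5. They are common, with a match in 60.3% of the 32851 promoters of that length. The longer AACAGGAA, the core of a joint FOX and ETS motif (reverse complement TTCCTGTT, which contains TTCCT), was found in 1 of the 5, Emcn, against 2.25% of all promoters. The letters bound by GATA-family factors, AGATAA, had 0 matches in the 5 windows on either strand, against 9.99% of all promoters. The core bound by hypoxia-inducible factors, ACGTG, also had 0, against 16.6% of all promoters. The TATA box core, TATAAA, had 0 as well, against 12.4% of all promoters. The Cldn5 window held 12 CpG dinucleotides, and the other 4 windows held 1 to 6.

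The comparison the study made was between tumors growing with and without an intra-kidney tumor. No gene of the 10 differed between the groups by more than the spread between tumors. By limma with Benjamini-Hochberg adjustment over all 14008 genes tested, 0 of the 10 passed 0.05 (smallest adjusted p = 0.544, Eng), against a background of 0% of all genes. At an unadjusted p under 0.05 the count was 0 of the 10, against 11.5% of all genes (1608), and limma voom on the recovered reads also called 0 of the 10, with 0 at an unadjusted p under 0.05. Leaving out IK2 or weighting the tumors raised the share of all genes called to 1.22% and 3.89%, still with 0 of the 10 among them. Groups overlapped for all 10 genes, where 0.478% of all genes had groups that did not overlap. In mean, 8 of the 10 were lower with an intra-kidney tumor and 2 (Cldn5 and Angpt2) were higher, but the direction turned for Emcn in 6 and for Plvap in 2 of the alternative settings. The median difference of the 10 was -0.06, beside 0.01 over all genes tested, and every 95% interval lay within 1 log2 unit of 0, that is, within 2-fold.

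**Figure D1:**
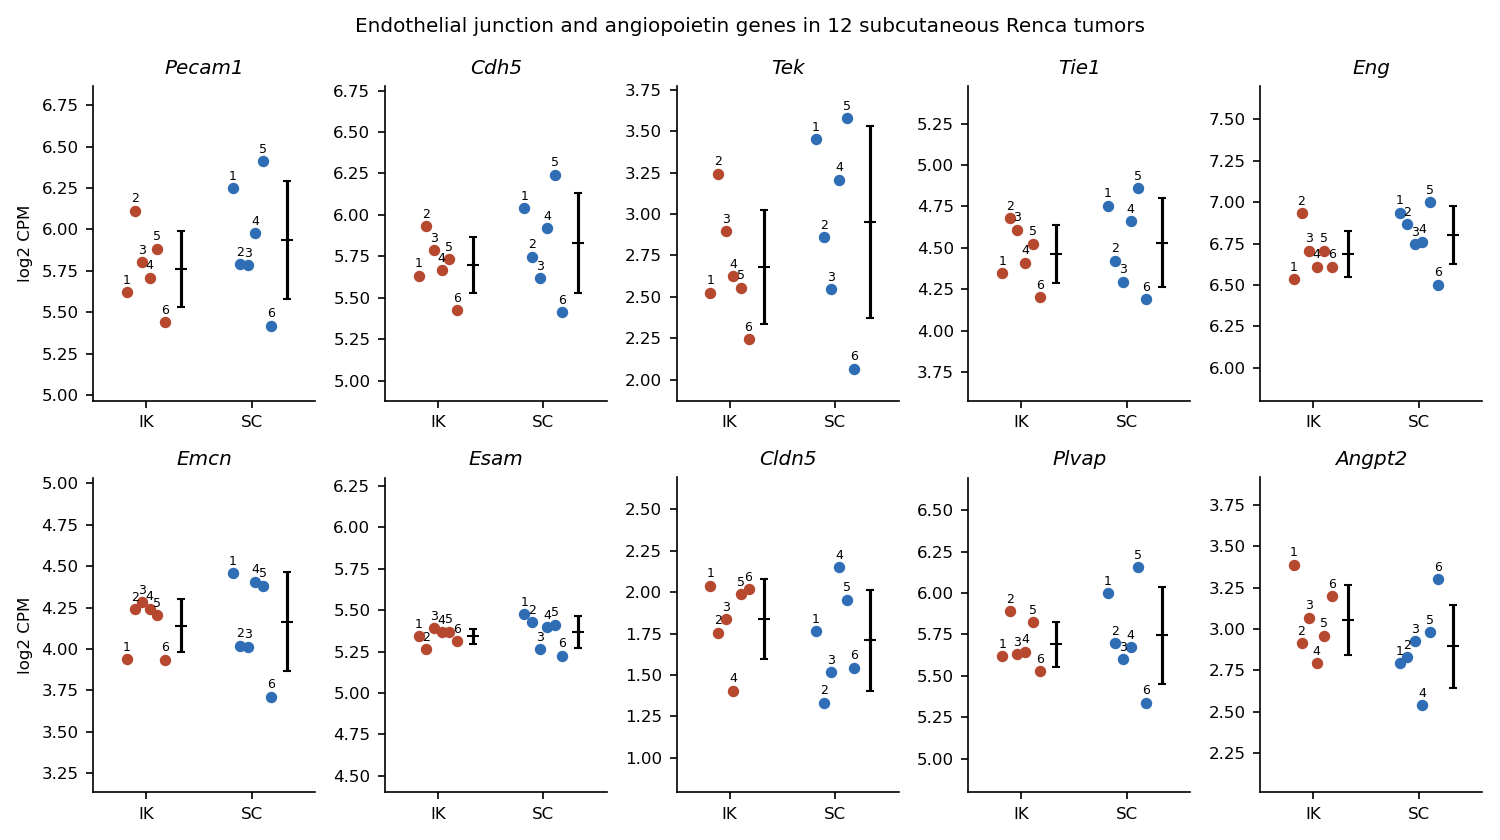
Level of each gene (log2 CPM, each vertical axis spanning the same number of log2 units) in tumors with (IK, red) and without (SC, blue) an intra-kidney tumor. Points are tumors with their replicate number, and bars show the group mean and SD (n = 6). SC5 is the highest tumor for 6 genes and SC6 the lowest for 8.

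Among the junction genes, Cdh5, the cadherin of endothelial adherens junctions, lay at 5.43, 5.70 and 5.93 (lowest, median and highest log2 CPM) with an intra-kidney tumor and at 5.41, 5.83 and 6.24 without. The SC tumors spanned the whole IK range, with SC5 and SC1 above and SC6 just below it. The difference was -0.13 ± 0.13 (SE; 95% interval -0.41 to 0.14, adjusted p = 0.648, limma). Pecam1 lay at 5.44, 5.76 and 6.11 with an intra-kidney tumor and at 5.42, 5.88 and 6.41 without, again with SC5 highest and SC6 lowest, and differed by -0.18 ± 0.16 (-0.51 to 0.16). Esam was the steadiest gene, at 5.27, 5.35 and 5.39 with an intra-kidney tumor and 5.23, 5.40 and 5.47 without. Its highest and lowest tumors were 1.19-fold apart, its residual SD of 0.076 was below the median of 0.114 over all genes, and its difference was -0.03 ± 0.05 (-0.12 to 0.07). Cldn5, which seals endothelial tight junctions, lay at 1.4, 1.91 and 2.04 with an intra-kidney tumor and at 1.33, 1.65 and 2.15 without. IK4 and SC2 were its low tumors and SC4 its highest, an order unlike that of Cdh5, and the difference was 0.13 ± 0.15 (-0.20 to 0.46).

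Of the surface genes, Eng lay at 6.54, 6.66 and 6.93 with an intra-kidney tumor and at 6.5, 6.81 and 7.0 without. Its IK tumors were below the SC median in 5 of 6, and the difference of -0.12 ± 0.08 (-0.30 to 0.06) had the smallest p of the 10 genes (unadjusted 0.184, limma). Emcn lay at 3.93, 4.22 and 4.28 with an intra-kidney tumor and at 3.71, 4.20 and 4.46 without, a difference of -0.02 ± 0.13 (-0.30 to 0.25). Plvap lay at 5.53, 5.64 and 5.89 with and at 5.34, 5.69 and 6.16 without, a difference of -0.06 ± 0.12 (-0.31 to 0.20). In both genes the SC tumors reached further up and further down than the IK tumors.

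Of the receptors, Tek had the widest range of the 10 genes, 2.85-fold between SC5 and SC6. It lay at 2.25, 2.59 and 3.24 with an intra-kidney tumor and at 2.07, 3.03 and 3.58 without. Its difference of -0.27 ± 0.25 (-0.81 to 0.26, adjusted p = 0.631, limma) was the largest of the 10 in size and about as large as its own error, since SC1, SC4 and SC5 were high and SC3 and SC6 low within 1 group. It was -0.15 without SC5 and -0.45 without SC6. Tie1 lay at 4.20, 4.47 and 4.68 with and at 4.19, 4.54 and 4.86 without, a 1.59-fold range, and differed by -0.07 ± 0.12 (-0.33 to 0.19). The ligand Angpt2 lay at 2.79, 3.02 and 3.39 with an intra-kidney tumor and at 2.54, 2.88 and 3.30 without. IK1, SC6 and IK6 were its high tumors and SC4 its low one, and the difference was 0.16 ± 0.13 (-0.11 to 0.43, adjusted p = 0.579, limma).

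**Figure D2:**
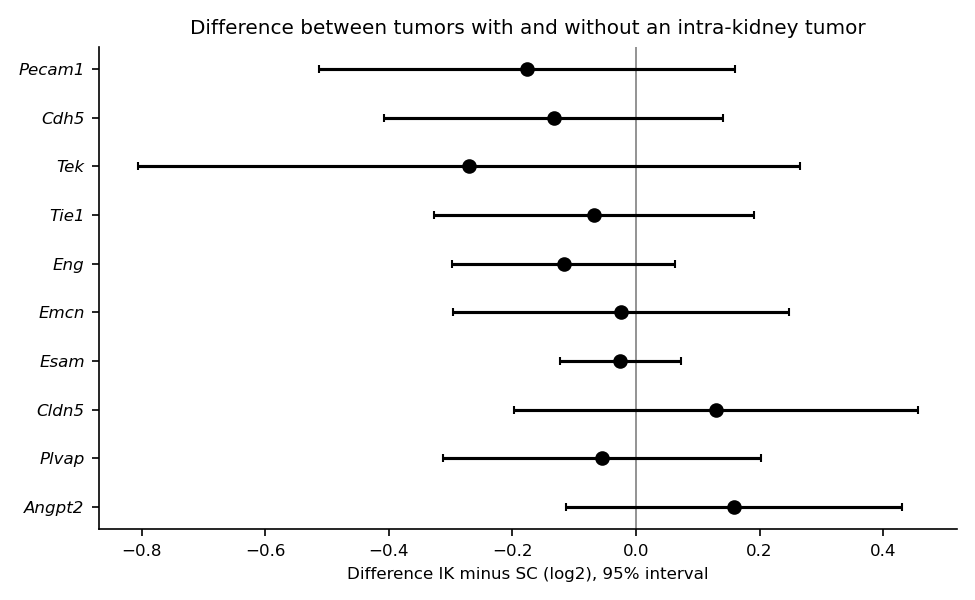
Difference IK minus SC for each gene (log2), with its 95% interval from limma. Every interval includes 0, from the narrow one of Esam (-0.12 to 0.07) to the wide one of Tek (-0.81 to 0.26).

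The larger variation lay between tumors of the same group, and most of the genes shared it. Tumor SC5 had the highest level of 6 genes and was above the mean in all 10, while SC6 had the lowest level of 8 genes and was below the mean in 9. SC1 was above the mean in 8 genes, SC4 in 8, IK2 in 7 and IK3 in 7, and SC3 was below it in 9 and IK1, IK4 and IK6 in 8 each. The exceptions in SC6 and IK6 included Angpt2, which was 0.33 above its mean in SC6 and 0.22 above in IK6. Cldn5 was 0.24 above its mean in IK6 and 0.44 below in SC2.

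**Figure D3:**
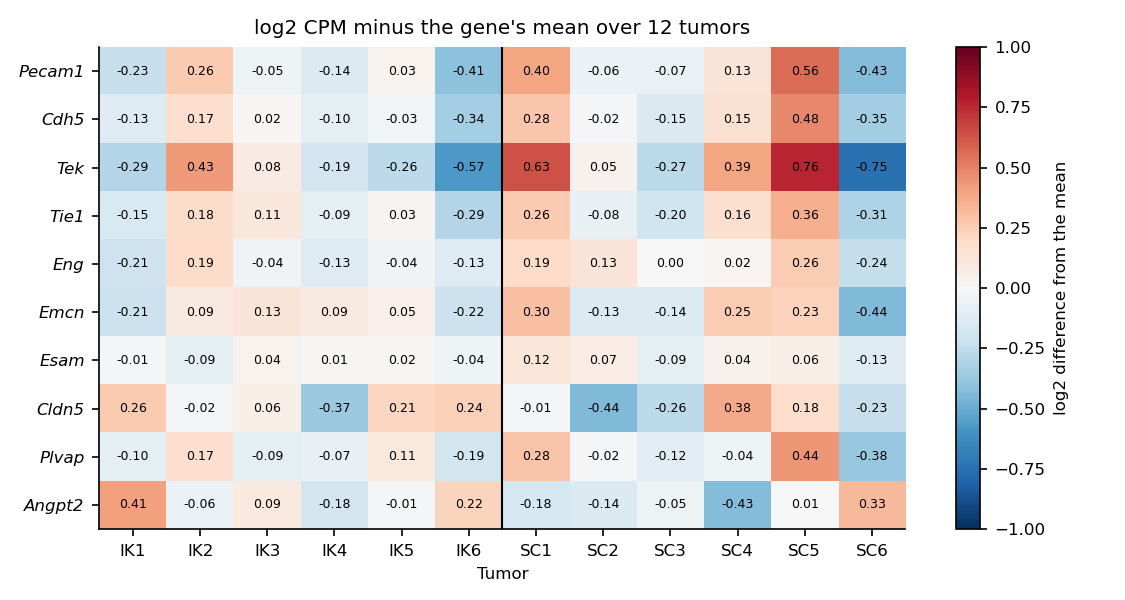
log2 CPM of each gene (rows) in each tumor (columns) minus the gene's mean over 12 tumors, red above and blue below. SC5 lies above the mean in every row (by only 0.01 for Angpt2), SC6 lies below it except for Angpt2 (0.33), and Cldn5 and Angpt2 do not share the pattern of the other rows.

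Across the 12 tumors, genes were set against Cdh5, which is largely restricted to endothelium. Pecam1 followed it closely (Pearson r = 0.979, permutation p = 1e-05, Spearman rho = 0.958, permutation p = 3e-05), with Tek (r = 0.976, rho = 0.986) and Tie1 (r = 0.974, rho = 0.993) alike, and their order changed with the measure. For Tek and Tie1 all 4 permutation p-values were 1e-05, the smallest that 100000 resamples can give. Plvap (r = 0.922, p = 2e-05; rho = 0.916, p = 8e-05), Eng (r = 0.868, p = 0.00027; rho = 0.853, p = 0.0008) and Emcn (r = 0.858, p = 0.0004; rho = 0.881, p = 0.00033) also followed, all by permutation. Adjusted over the 9 relations by Benjamini-Hochberg, these 6 had p from 3e-05 to 0.0006 for r and from 4.5e-05 to 0.0012 for rho. Without SC5 and SC6, the 2 tumors farthest from the median of Cdh5, their r was 0.767 to 0.973 (adjusted permutation p = 0.00018 to 0.0141), so the relation did not rest on them. Within the 6 IK tumors r was 0.965 for Pecam1, 0.949 for Tek and 0.975 for Tie1 (exact permutation, adjusted p = 0.0292, 0.0292 and 0.0125), and 0.795, 0.77 and 0.825 for Eng, Emcn and Plvap (adjusted exact p = 0.125, 0.08 and 0.075). Within the 6 SC tumors r was 0.898 to 0.987 for the 6 genes (adjusted exact permutation p = 0.00625 to 0.0271).

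The other 3 genes had weaker or opposite relations. Esam had r = 0.631 (permutation p = 0.0288, adjusted p = 0.037) and rho = 0.727 (permutation p = 0.0105, adjusted p = 0.0135). Without SC5 and SC6 its r fell to 0.486 (permutation p = 0.154, adjusted p = 0.173), so its call rested on those tumors, which are also the extremes of Cdh5, although its rho was still 0.6 (permutation p = 0.0746). Within the groups its r was -0.133 (IK) and 0.813 (SC, exact permutation p = 0.808 and 0.0542). Cldn5 had r = 0.247 and rho = 0.119 (permutation p = 0.439 and 0.715, adjusted p = 0.439 and 0.715), and r = 0.025 without SC5 and SC6. Within the groups its r was -0.309 (IK) and 0.641 (SC, exact permutation p = 0.522 and 0.169). Angpt2 ran the other way, with r = -0.535 and rho = -0.49 (permutation p = 0.0734 and 0.109, adjusted p = 0.0826 and 0.122), which did not pass. It stayed negative without SC5 and SC6 (r = -0.605, permutation p = 0.0623) and within each group (-0.482 and -0.499, exact permutation p = 0.325 and 0.3). Over all pairs of the 10 genes, r ran from -0.721 (Emcn with Angpt2) to 0.979. Among Cdh5 and the 6 genes that followed it, a set picked after these values were seen, the 21 pairs had r from 0.69 to 0.979 with a median of 0.89.

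**Figure D4:**
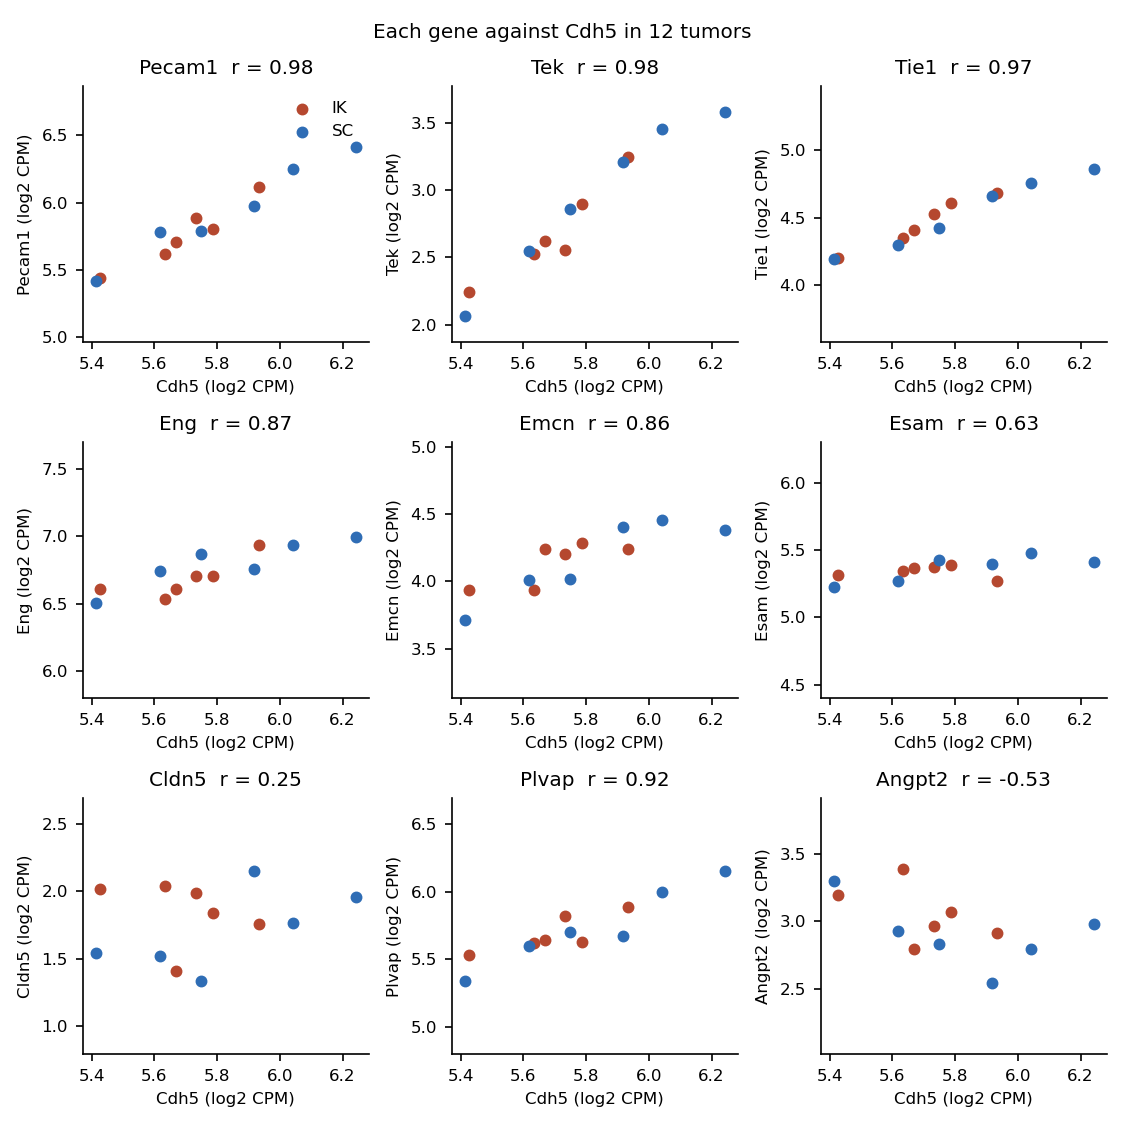
Each gene (vertical axis, log2 CPM) against Cdh5 (horizontal axis, log2 CPM) in 12 tumors, IK in red and SC in blue, with Pearson r. Pecam1, Tek and Tie1 lie close to a line (r of 0.979, 0.976 and 0.974), Esam is nearly flat, Cldn5 is scattered (0.247) and Angpt2 slopes down (-0.535).

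Following Cdh5 was not particular to endothelial genes in these tumors. Of all genes tested, the 8 others most like Cdh5 over the 12 tumors were Grb10 (r = 0.989), an adaptor of receptor tyrosine kinases, Lamb1 (0.987), a laminin chain of basement membranes, Adam12 (0.983), a metalloprotease, Mfap2 (0.981), a microfibril protein, Tagln (0.979) and Myl9 (0.978), both of the smooth muscle cytoskeleton, Fkbp10 (0.978), a collagen chaperone, and Col6a3 (0.977), a collagen chain. Pecam1 stood at position 5, Tek at 11 and Tie1 at 15 by r with Cdh5, Plvap at 219, Eng at 551, Emcn at 630, Esam at 2494, Cldn5 at 4698 and Angpt2 at 10405, where the median gene had r = -0.12. The summed level of the fibroblast list (10 of 10 genes in the table) ran from 6571 to 15484 CPM in IK tumors and from 6441 to 19472 CPM in SC tumors. Its 4 highest tumors were SC5, SC1, IK2 and SC4, in the same order as for Cdh5, and its lowest were IK6 and SC6, also as for Cdh5. Their part in the shared variation was not tested. The summed mural cell list (14 of 14) ran from 381 to 504 CPM in IK and from 362 to 630 CPM in SC tumors, with SC5 and SC1 again highest and IK6 and SC6 lowest. Skeletal muscle genes (10 of 10) summed to 43.8 to 211 CPM in IK tumors and to 3.45 (SC6) to 475 CPM (SC5) in SC tumors, so the tumors at the extremes of the endothelial genes were also the extremes for muscle RNA. Leukocyte genes (12 of 12), of cells that also carry Pecam1, summed to 3015 to 4280 CPM in IK and 2822 to 4154 CPM in SC tumors, again with SC6 lowest. Of 9 platelet genes only Pf4 and Itga2b were in the table, at a summed 11 to 15.4 CPM in IK and 12.7 to 17.1 CPM in SC tumors. Lymphatic genes were represented by 3 of 7, at 234 to 316 CPM in IK and 259 to 325 CPM in SC tumors, nearly all from Pdpn, which other cells also express. The tumor epithelium list (6 of 8) had the reverse extremes, highest in SC6 (2965 CPM) and lowest in SC5 (2359 CPM). Over the 12 tumors its mean log2 level had r = -0.142 with Cdh5. For the other lists r with Cdh5 was 0.945 (fibroblast), 0.857 (mural cell), 0.745 (leukocyte), 0.715 (skeletal muscle), 0.612 (lymphatic) and 0.584 (platelet). The part of these cell types in the endothelial values was not tested.

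Genes most like Angpt2 were others than those most like Cdh5. Among the 8 of highest r were Ppp1r15a (0.893), a stress-induced phosphatase subunit, Lmf1 (0.857), a lipase maturation factor, Ankzf1 (0.834), Togaram2 (0.818), Fbxo2 (0.81) and Zmym6 (0.809), all over 12 tumors. The 3 tumors of highest Angpt2, IK1 (3.39), SC6 (3.30) and IK6 (3.20), were also the 3 of highest summed hypoxia genes (5178, 4266 and 5243 CPM). The hypoxia list (13 of 15 genes in the table) summed to 2840 to 5243 CPM in IK and 2619 to 4266 CPM in SC tumors, and SC4, the tumor of lowest Angpt2 (2.54), lay at 3013 CPM. The other tumors did not keep that order: IK4 was next in hypoxia genes (3889 CPM) with an Angpt2 of 2.79, and SC5 was lowest (2619 CPM) with an Angpt2 of 2.98. Angpt2 is known as a hypoxia-inducible gene. Over the 12 tumors the mean log2 level of the hypoxia list had r = 0.729 with Angpt2. The part of hypoxia in the level of Angpt2 was not tested. Red cell genes (4 of 5) summed to 33.9 to 54 CPM in IK and 29.5 to 45.6 CPM in SC tumors, and the tumors of high Angpt2, IK1, SC6 and IK6, lay at 50.3, 44.1 and 43.6 CPM and SC4 at 31.1 CPM. The orders differed, since IK3 was highest in red cell genes (54 CPM) and SC1 lowest (29.5 CPM). SC5 (45.6 CPM) and IK5 (45.4 CPM) also lay above SC6 and IK6. The mean log2 level of the red cell list had r = 0.75 with Angpt2 over the 12 tumors. The part of blood content was not tested either.

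Ratios set 1 gene against another within the same tumor. On a log2 scale, Angpt2 over Cdh5 was -2.64 ± 0.33 with and -2.93 ± 0.48 without an intra-kidney tumor (SD, n = 6 each), and 6 of 6 IK tumors lay above the SC median. The difference of 0.29 (95% interval -0.24 to 0.82) did not pass an exact permutation test (two-sided p = 0.225, adjusted over 6 ratios 0.382). Angpt2 over its receptor Tek was 0.37 ± 0.48 with and -0.06 ± 0.76 without, a difference of 0.43 (-0.39 to 1.24, exact permutation p = 0.26, adjusted 0.382). In both ratios SC6 was the highest tumor of all (-2.11 and 1.23), above IK1 and IK6. Without SC6 the differences were 0.46 and 0.69 (exact permutation p = 0.0476 and 0.0411, adjusted 0.0952 for both), which did not pass when adjusted. Without SC4 they were 0.20 and 0.31 (exact permutation p = 0.4 and 0.437), the smallest values with 1 tumor left out. Tek over Tie1 was -1.78 ± 0.20 with and -1.58 ± 0.32 without, a difference of -0.20 (-0.54 to 0.14, exact permutation p = 0.208, adjusted 0.382), or -0.31 without SC6 (exact permutation p = 0.0325, adjusted 0.0952) and -0.14 without SC5 (exact permutation p = 0.37). Plvap over Cldn5, the ratio of a gene of fenestrated endothelium to one of barrier endothelium, was 3.85 ± 0.29 with and 4.03 ± 0.32 without, a difference of -0.18 (-0.58 to 0.21, exact permutation p = 0.318). Emcn over Cdh5 differed by 0.11 (-0.04 to 0.26, exact permutation p = 0.141, adjusted 0.382), with SDs of 0.11 and 0.12.

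**Figure D5:**
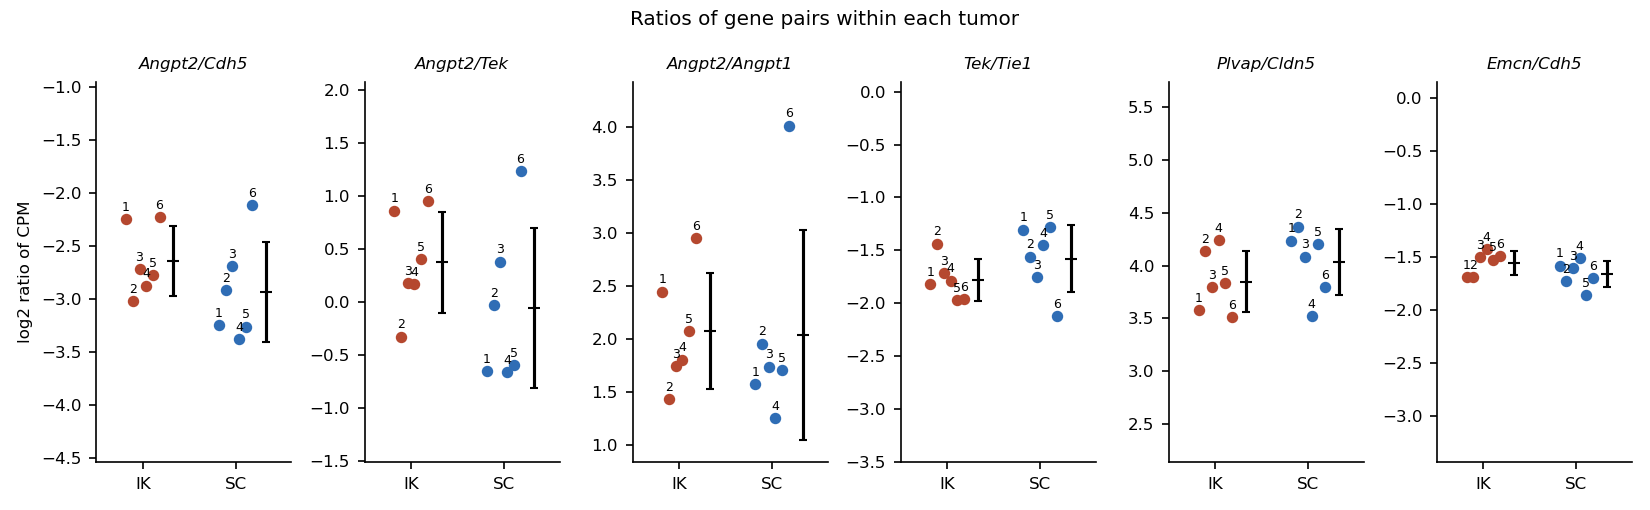
log2 ratio of CPM of 6 gene pairs in each tumor (points with replicate numbers), IK in red and SC in blue, with group mean and SD (n = 6). The vertical axes span equal lengths; SC6 stands highest for Angpt2 over Cdh5 (-2.11), Tek (1.23) and Angpt1 (4.02).

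The ratio of Angpt2 to Angpt1 joins the ligands of TIE2 with opposing roles. It was 2.08 ± 0.55 with and 2.04 ± 1.00 without an intra-kidney tumor, a difference of 0.04 (-1.0 to 1.07, exact permutation p = 0.942). Angpt1 itself lay between -0.72 in SC6 (32 reads) and 1.49 in IK2 and differed by 0.12 ± 0.33 (adjusted p = 0.884, limma). SC6 therefore combined the lowest Angpt1 with the second level of Angpt2.

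The rest of the angiopoietin pathway had 14 of 14 genes in the table, with 5 higher and 9 lower in mean and 0 called by limma (background 0%; 2 at an unadjusted p under 0.05). The median difference was -0.07, beside 0.01 over all genes. Ptprb, the phosphatase that acts on TIE2 and VE-cadherin, lay between 4.10 (SC6) and 5.24 (SC5) and differed by -0.19 ± 0.17. Svep1, a large matrix protein that binds integrins, differed by -0.76 ± 0.34 (adjusted p = 0.432, limma), with 3.55 (IK6) to 6.00 (SC5) as its range. Tnip2, an adaptor that binds TIE2, differed by -0.17 ± 0.06 (adjusted p = 0.432, limma), and the TIE2 adaptor Dok2 by -0.26 ± 0.13. Angpt4, a further TIE2 ligand, differed by -0.07 ± 0.25, and the synthase Nos3, which acts downstream in endothelium, by -0.14 ± 0.13. The transcription factors Foxo1, which drives Angpt2 in endothelium, Klf2 and Klf4 differed by -0.07 ± 0.06, -0.03 ± 0.09 and 0.19 ± 0.12. The integrin chains Itgav, Itgb1 and Itga5 differed by 0.08, 0.04 and -0.07, and the sheddase Adam17 by 0.00, with SEs of 0.03 to 0.05.

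Other lists around the endothelium had 0 called genes as well (limma, background 0%). Their counts at an unadjusted p under 0.05 stand beside a share of 11.5% over all genes. Of 28 other endothelial genes 25 were lower and 3 higher in mean (median -0.14, 1 at an unadjusted p under 0.05), among them Egfl7, a secreted vascular protein, at -0.24 ± 0.12 and the transcription factor Lyl1 at -0.12 ± 0.05. Junction partners were split, with 11 of 22 higher and 11 lower (median 0.00, 1 at an unadjusted p under 0.05), with beta-catenin (Ctnnb1) at 0.09 ± 0.05. These partners are also made by epithelial cells. Of 13 partners and targets of endoglin 8 were higher and 5 lower (median 0.02, 3 unadjusted), with the BMP target Id1 at 0.16 ± 0.06 and the signal transducer Smad5 at 0.10 ± 0.04. Sprouting and tip cell genes had 7 of 12 higher (median 0.11, 0 unadjusted), with the channel subunit Kcne3 at 0.21 ± 0.13 and the VEGF family ligand Pgf at 0.16 ± 0.14. Leukocyte adhesion genes were lower in 5 of the 5 tested, of 8 listed (median -0.40, 1 unadjusted), with Vcam1, a ligand of leukocyte integrins, at -0.40 ± 0.21.

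Mural cell genes were lower in 10 of 14 (median -0.09, 1 unadjusted), with Cnn1, a smooth muscle protein, at -0.56 ± 0.23 and the pericyte gene Higd1b at 0.35 ± 0.18. Among the lists of other cell types, leukocyte genes were lower in 12 of 12 (median -0.22, 2 unadjusted, with Cd8a at -1.66 ± 0.69 and Cd3e at -1.24 ± 0.55), fibroblast genes in 9 of 10 (median -0.38, 0 unadjusted, with Thy1 at -0.38 ± 0.22 and Lum at -0.46 ± 0.29) and fat cell genes in 6 of 6 (median -0.73, 3 unadjusted, with Cidec at -1.82 ± 0.59 and Pparg at -0.70 ± 0.30). Muscle genes were split, with 4 of 9 lower and 5 higher (median 0.02, range -0.59 to 0.50, 0 unadjusted, with Actn3 at -0.57 ± 0.76 and Pvalb at -0.59 ± 1.08 among the lower ones). Platelet genes were lower in 2 of 2 (Pf4 at -0.14 ± 0.09 and Itga2b at -0.06 ± 0.16) and tumor epithelium genes in 5 of 6 (median -0.06, 0 unadjusted, with Pax8 at -0.13 ± 0.06 and Krt18 at -0.07 ± 0.04). Hypoxia genes were higher in 11 of 13 (median 0.27, 4 unadjusted, with Adm at 1.24 ± 0.50 and Slc2a1 at 0.71 ± 0.30), proliferation genes in 10 of 10 (median 0.11, 7 unadjusted, with Cdk1 at 0.19 ± 0.05 and Bub1 at 0.25 ± 0.09) and red cell genes in 4 of 4 (median 0.31, 3 unadjusted, with Hbb-bt at 0.30 ± 0.12 and Hba-a1 at 0.34 ± 0.14). Lymphatic genes were split, with Lyve1 at 0.46 ± 0.45 and Pdpn at -0.13 ± 0.07. All values of this kind are log2 differences with SE from limma, and 0 of these genes passed after adjustment.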

How the data were processed

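RNA of 12 whole subcutaneous tumors was sequenced, 6 per group. The submitters' processing notes name the build mm9, TopHat 1.4.1, CASAVA 1.8.2, limma and HTSeq. Settings, strand handling and the annotation release are not given in the sources used here. The values deposited by the authors are log2 CPM of 14496 genes. Undoing the logarithm and an offset of 0.5 reads gave whole reads for 100% of values, within 0.001 of a read. All genes in the table had at least 1 CPM in at least 2 tumors. Depth was 53312559 to 66142468 recovered reads, so the spread between tumors, and not counting, limits the precision of all but the lowest genes.

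Symbols were matched by identifier for 14004 genes. Exon lengths were taken from GENCODE M21 (GRCm38). In that annotation Eng shares 61 exonic bases with Fpgs on the opposite strand, and the other 9 genes share 0 with another gene. Testing required a log2 CPM of 0 or more in 6 or more tumors (14008, including all 10 described), with limma 3.58.1 in R 4.3.3 (empirical Bayes with a trend, two-sided, Benjamini-Hochberg, threshold 0.05), without further scaling. The test was checked on simulated reads. Ratios were tested by exact permutation over 924 assignments (smallest possible p 0.00216) and correlations by 100000 permutations (SciPy 1.17.1). Alternatives were tumors weighted by quality, other filters, scalings and variance models, the replicate number as a block, a muscle and fat covariate, and the omission of tumors. Every pair of tumors in a group differed beyond counting noise (chi-square divided by its degrees of freedom, 13.2 to 164), so none was treated as a duplicate.

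The genes, the 17 companion lists, the ratios and the tests were chosen with earlier results of these data known. The rule for named genes took all 10, every gene of the angiopoietin pathway list, the 2 of smallest p from each other list, and the 8 most like Cdh5 and Angpt2. Some genes that the rule took are not reported here. Motifs and the set of genes following Cdh5 were chosen after the data were seen.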

Additional observations from a re-analysis of the deposited data

Results flagged for a closer look

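The log2 ratio of Angpt2 to Angpt1 in tumor SC6 was 4.02, where the other 5 tumors without an intra-kidney tumor lay at 1.25 to 1.95. The gap to its nearest neighbour took up 0.745 of the whole range of the group, above the critical value of Dixon's test for 6 samples. Angpt1 had 32 reads in SC6, so its counting error there was larger than for any of the 10 genes. The 10 genes and 6 ratios were searched in both groups, 32 groups in all, and chance marks about 1 group in 20.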

How the results depend on the processing

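Of 239 values of the 10 genes under 24 alternative settings, 231 kept their direction and 0 passed the threshold (limma, smallest adjusted p = 0.109). The stricter filter left no value for Cldn5. Emcn (-0.02) turned to 0.0271 and Plvap (-0.06) to 0.00217 with the muscle and fat covariate. With single tumors left out Emcn ranged from -0.115 to 0.0342 and Plvap from -0.137 to 0.0272, above 0 without replicate 5 of the SC group in both, and for Emcn also without replicates 1 and 6 of the IK group or 1 and 4 of the SC group. The others kept their direction, with ranges of -0.28 to -0.08 for Pecam1, -0.22 to -0.05 for Cdh5, -0.45 to -0.15 for Tek, -0.136 to -0.00196 for Tie1, -0.18 to -0.08 for Eng (each lowest without SC6 and nearest 0 without SC5), -0.054 to -0.00441 for Esam (without SC6 and SC1), 0.05 to 0.22 for Cldn5 (without SC2 and SC4) and 0.09 to 0.24 for Angpt2 (without SC4 and SC6). The count of genes called over the whole table was 0, but 1 without the variance trend, 545 with sample weights (3.89%) and 171 without replicate 2 of the IK group (1.22%), with 0 of the 10 among them. With the replicate number as a block 0 genes were called. Same-numbered tumors did not regularly deviate together (correlations -0.305 to 0.447, and 1 of 12 tumors closest to its own number). A weak pairing would not show in this way, so whether the numbers pair the tumors stays unknown. With the block, ratio differences stayed at 0.29 for Angpt2 over Cdh5 and -0.20 for Tek over Tie1 (exact sign-flip p = 0.25 for both).

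The Angpt2 over Angpt1 difference (0.04) had no stable direction. It ranged from -0.14 to 0.43 with single tumors left out, and was -0.839 as a linear ratio. Of the genes set against Cdh5, 7 passed over all tumors, 6 without SC5 and SC6, 3 in the IK group alone and 6 in the SC group alone. In the IK group the r of Esam was -0.133 and that of Cldn5 -0.309. Leaving out SC5 and SC6 together was added after seeing the data. Angpt2 then differed by 0.28 (limma, adjusted p = 0.458) and Angpt2 over Cdh5 by 0.42 (exact permutation, adjusted p = 0.2).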

Other observations

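The SD among tumors without an intra-kidney tumor was larger than that among tumors with one for 10 of the 10 genes, against 49.4% of all genes tested. Without SC5 this held for 10 of 10 (39.5% of all genes), without SC6 for 8 of 10 (40.2%, the exceptions being Eng and Angpt2), and without both for 7 of 10 (30.6%, Pecam1 added to the exceptions). Several of the genes vary together, so the 10 are not 10 separate results, and the difference in spread was not tested.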
